A study of Mus musculus with 4 samples.

Results

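Chromatin loops at the genes that build glycosaminoglycan chains, and at the glypican and syndecan genes whose proteins carry those chains on the cell surface, were compared in granulosa cells after hCG (human chorionic gonadotropin) and in granulosa cells before it. The list held 46 genes, named by function. A gene counted as looped when one of its annotated ends in mm10 lay within 2.5 kb of a loop anchor in at least 1 of 4 loop lists. By that rule 33 of the 46 genes (71.7%) were looped. Of all 21631 protein-coding genes, 9139 (42.2%) were.

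The loops came from Micro-C, a chromosome conformation assay that cuts chromatin with micrococcal nuclease, on granulosa cells collected from punctured ovaries of 21-day-old mice, whose strain and genotype are not given in the labels. The hCG group (2 libraries) came from mice given 5 IU of eCG (equine chorionic gonadotropin, the PMSG of the group name) and then 5 IU of hCG for 6 h, in place of the surge of luteinizing hormone (LH) that starts ovulation. The PMSG group (2 libraries) came from mice given the same eCG and collected at 0 h. Both groups share the eCG exposure, for which the labels hold 2 values, 46 h under characteristics and 44 h under treatment. The labels do not say whether libraries came from separate mice or how many mice were pooled. The lists held 7664 and 7935 loops in the hCG libraries and 8305 and 6533 loops in the PMSG libraries, and contacts summed over the called pixels came to 311016 and 349717 in hCG and to 393852 and 272470 in PMSG. Of 10 granulosa marker genes 9 were looped, against 5 of 8 theca and stroma, 1 of 6 endothelial, 2 of 6 leukocyte and 2 of 6 oocyte markers. The looped granulosa markers numbered 8 and 8 in the hCG libraries and 8 and 4 in the PMSG libraries. Of these 9 markers, 3 (33.3%) were at loops called in both hCG libraries alone (Esr2, Inhba and Nr5a2). At loops called in both PMSG libraries alone was 1 (11.1%, Inhba), and 4 (44.4%) were at loops called in all 4. Of all looped protein-coding genes the shares were 8.31%, 5.46% and 41.8%. The looped theca and stroma markers numbered 4 and 5 in the hCG libraries and 5 and 4 in the PMSG libraries. Of these 5 markers, 2 (40%) were at loops called in both hCG libraries alone (Nr2f2 and Pdgfra). At loops called in both PMSG libraries alone were 3 (60%, Acta2, Col1a1 and Pdgfra), and 3 (60%) were at loops called in all 4. The part of these markers in the results was not tested. A loop at a gene does not measure its expression, and a loop in few cells cannot be told apart from a weak loop in many.

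Glycosaminoglycans are long chains of repeated sugar pairs attached to core proteins through a short linker. Chains of the heparan sulfate kind and of the chondroitin or dermatan sulfate kind share that linker and then part ways, and sulfotransferases and epimerases give each chain the pattern that growth factors and proteases bind. Glypicans, held by a lipid anchor, and syndecans, which span the membrane, carry mainly heparan sulfate, and granulosa cells are known to make both kinds of chain around the growing follicle and in the matrix of ovulation.

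The gene starts that lay at an anchor of an hCG-only loop, one called in both hCG libraries and in no PMSG library, are shown for the 5 genes whose start was reached in both hCG libraries. For Sdc1 and Sulf2 the start was also within 2.5 kb of anchors of other loops in both PMSG libraries. Each sequence holds the 250 bases before the start, from RefSeq on GRCm38.p6, 5′ to 3′ on the strand of the gene. They lie at chr7:66109242-66109491, plus strand, for Chsy1, at chr9:62122610-62122859, minus strand, for Glce, at chr2:166155684-166155933, minus strand, for Sulf2, at chrX:52164924-52165173, minus strand, for Gpc4, and at chr12:8771146-8771395, plus strand, for Sdc1. Capitals mark the GC box GGGCGG or its reverse complement CCGCCC, the letters bound by Sp-family factors.
Chsy1: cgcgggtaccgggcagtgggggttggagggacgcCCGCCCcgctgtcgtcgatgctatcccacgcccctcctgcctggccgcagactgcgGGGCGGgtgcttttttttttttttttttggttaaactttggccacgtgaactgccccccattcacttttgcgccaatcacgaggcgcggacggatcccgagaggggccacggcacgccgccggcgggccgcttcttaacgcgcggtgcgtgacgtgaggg
Glce: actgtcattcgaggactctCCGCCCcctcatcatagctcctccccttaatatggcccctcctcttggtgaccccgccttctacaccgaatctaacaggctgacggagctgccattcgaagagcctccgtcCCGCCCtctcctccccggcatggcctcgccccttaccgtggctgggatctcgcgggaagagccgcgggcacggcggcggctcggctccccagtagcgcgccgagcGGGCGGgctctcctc
Sulf2: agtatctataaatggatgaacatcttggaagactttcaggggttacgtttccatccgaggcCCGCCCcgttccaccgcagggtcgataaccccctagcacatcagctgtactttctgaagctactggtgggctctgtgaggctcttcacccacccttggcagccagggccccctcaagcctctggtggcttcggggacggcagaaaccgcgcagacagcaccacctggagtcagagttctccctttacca
Gpc4: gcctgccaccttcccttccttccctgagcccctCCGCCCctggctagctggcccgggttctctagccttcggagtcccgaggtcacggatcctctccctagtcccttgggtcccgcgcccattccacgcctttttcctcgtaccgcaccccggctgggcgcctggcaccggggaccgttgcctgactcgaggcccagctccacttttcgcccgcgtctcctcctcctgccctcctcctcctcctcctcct
Sdc1: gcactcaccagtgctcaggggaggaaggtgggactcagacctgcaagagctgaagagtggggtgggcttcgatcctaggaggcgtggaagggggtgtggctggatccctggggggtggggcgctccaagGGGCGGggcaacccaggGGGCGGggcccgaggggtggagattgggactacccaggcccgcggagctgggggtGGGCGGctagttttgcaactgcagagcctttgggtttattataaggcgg
The GC content of these windows was 65.6% for Chsy1, 67.2% for Glce, 57.2% for Sulf2, 68.4% for Gpc4 and 66.0% for Sdc1, and each held between 1 and 3 GC boxes. The promoter table held 25 of the 33 looped genes, each with 300 bases around the start. A GC box was present on either strand in 21 of these 25 (84.0%), against 58.2% of 7209 looped genes in the table, and the median GC content was 66.7% against 59.7%. A core motif of the loop factor CTCF (CCANNAG followed directly by NNGGC, both strands, where N is any base) was in 0 of the 25 windows, against 3.08% of the 7209. A cyclic AMP response element (TGACGTCA, which reads the same on both strands) was in 1 of the 25, against 3.01%. Each motif was counted on its own, so matches may overlap, and the counts describe these windows only.

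Each hCG library had more looped genes of the list than either PMSG library. Looped genes of the list numbered 22 and 20 in the hCG libraries and 17 and 14 in the PMSG libraries (21.0 ± 1.41 and 15.5 ± 2.12, SD, n = 2). Over all protein-coding genes the numbers were 5755 and 5835 in hCG and 5890 and 4692 in PMSG, so that for the whole genome the groups overlapped. Loops with an anchor at a gene of the list numbered 33 and 29 in the hCG libraries and 23 and 17 in the PMSG libraries. Relative to list length this was 4.31 and 3.65 per 1000 loops in hCG against 2.77 and 2.60 per 1000 in PMSG, a ratio of means of 1.48, and the groups did not overlap. Counting error alone gave each library a Wilson 95% interval, of 3.07 to 6.04 and 2.55 to 5.24 per 1000 in hCG and of 1.85 to 4.15 and 1.63 to 4.16 per 1000 in PMSG, and these overlapped. Loops at any protein-coding gene end made up 592 and 579 per 1000 in hCG and 572 and 552 per 1000 in PMSG. On this measure the groups did not overlap for all genes either, with a ratio of means of 1.04. An exact permutation test of 2 against 2 libraries cannot go below p = 0.333, so these values were not tested.

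**Figure D1:**
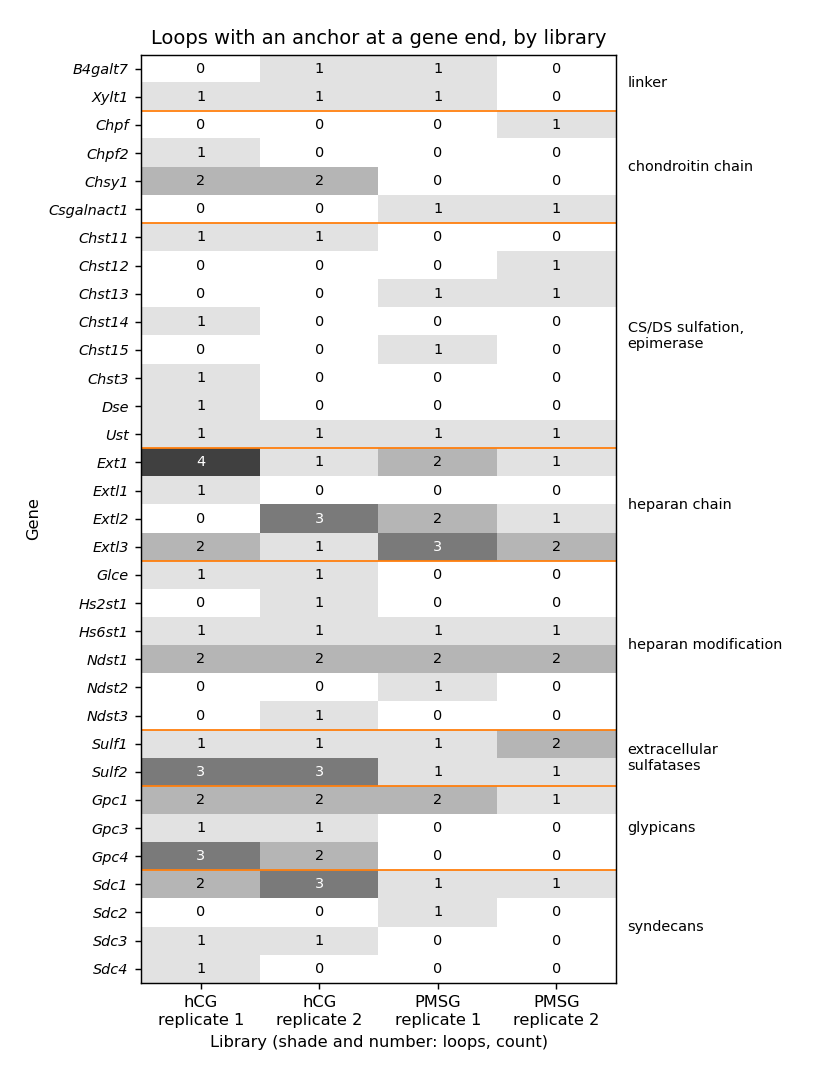
Number of loops with an anchor within 2.5 kb of an end of each looped gene of the list (rows, grouped by role) in each library (columns). Chsy1, Chst11, Glce, Gpc3, Gpc4 and Sdc3 have loops in both hCG libraries and 0 in both PMSG libraries, and Chst13 and Csgalnact1 have the reverse.

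The loops of the list had the smaller median spans in the hCG libraries. The median was 130 and 150 kb in the hCG libraries and 260 and 225 kb in the PMSG libraries. The medians of all loops at gene ends were 130 and 145 kb in hCG and 160 and 170 kb in PMSG. The difference of group means was -102.5 kb for the list and -27.5 kb for all loops at gene ends, and the difference between these values was not tested. The list medians rest on 33 and 29 loops in hCG and 23 and 17 in PMSG. Of these, 14 and 14 in hCG and 8 and 10 in PMSG were in 25 kb bins. Over the distinct loops defined below, the median was 160 kb for the list and 155 kb for all loops at gene ends.

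Loops of the 4 lists were then matched to each other. Loops whose anchor midpoints both lay within 20 kb formed 1 distinct loop. A distinct loop was hCG-only if it was called in both hCG libraries and no PMSG library, PMSG-only in the reverse case, and common if called in all 4. The genes of the list had 58 distinct loops. Of these 9 (15.5%) were hCG-only, 3 (5.17%) PMSG-only and 13 (22.4%) common, against 5.2%, 3.51% and 29.4% of 8368 distinct loops at any gene end. Of the 58, 22 (37.9%) were called in a single library, against 38.5% of the 8368.

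By gene, 9 of the 33 looped genes (27.3%, Wilson 95% interval 15.1 to 44.2%) were at an hCG-only loop, where 8.31% of all looped protein-coding genes were. These were Xylt1, Chsy1, Chst11, Ext1, Glce, Sulf2, Gpc3, Gpc4 and Sdc1, and every role group held at least 1 of them. At PMSG-only loops were 3 genes (9.09%), Csgalnact1, Chst13 and Ndst1, against 5.46% of all looped genes. Common loops were found at 13 genes (39.4%) against 41.8%. A class needs calls in at least 2 libraries, and 26 of the 33 genes had a distinct loop called in 2 or more. Among all such genes the shares were 11.1% for hCG-only, 7.31% for PMSG-only and 55.9% for common loops, against 9, 3 and 13 of these 26. The genes of the list were long and unevenly looped, with a median length of 64.3 kb against 23.6 kb for all looped genes and a median of 1 distinct loop in both. Among genes with 1 distinct loop, 2 of 21 list genes were at an hCG-only loop against 4.51% of all genes. With 2 distinct loops it was 2 of 3 against 9.36%, and with 3 or more it was 5 of 9 against 19%. Gpc3 and Gpc4 share 1 loop, so the 9 genes are not independent, and the list was not tested for enrichment.

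**Figure D2:**
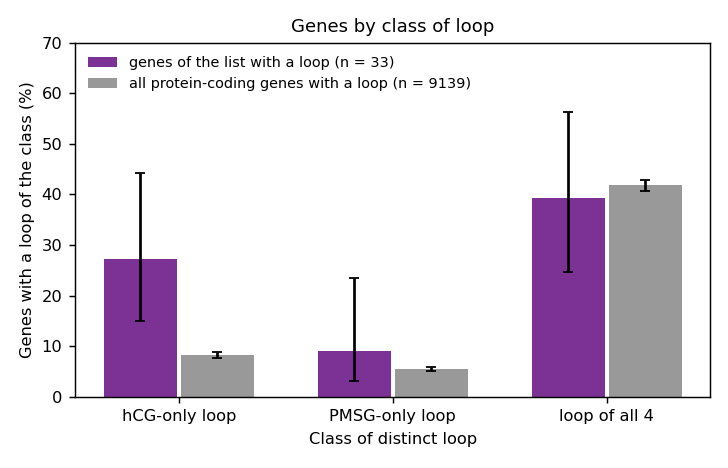
Share of looped genes (%) with a distinct loop of each class, for the 33 genes of the list and for all 9139 looped protein-coding genes. Bars show Wilson 95% intervals, which cover counting error only. The list stands at 27.3% against 8.31% for hCG-only loops, at 9.09% against 5.46% for PMSG-only loops and at 39.4% against 41.8% for common loops.

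Asked by gene and not by loop, 6 of the 33 genes (18.2%) had an anchor at an end in both hCG libraries and in no PMSG library, against 5.39% of all looped genes. They were Chsy1, Chst11, Glce, Gpc3, Gpc4 and Sdc3. Only Chst13 and Csgalnact1 had the reverse pattern (6.06% against 3.29%). Looped in all 4 libraries were 9 genes (27.3% against 27.3%), namely Ext1, Extl3, Gpc1, Hs6st1, Ndst1, Sdc1, Sulf1, Sulf2 and Ust. Altogether 14 genes (42.4%) were looped in hCG libraries alone, where 22.3% of all looped genes were, and 7 (21.2%) in PMSG libraries alone, against 18.1%. The other 12 (36.4%) were looped in both groups, against 59.6%. These patterns count anchors within 2.5 kb of the gene and not the calls of a loop. The loops of Chst3, Ndst3 and Sdc3, among the 14, and of Chst15, among the 7, were called in all 4 libraries. The loops of Chpf2 and Chst14 were also called in PMSG libraries, and that of Chst12 also in hCG replicate 1, with anchors beyond 2.5 kb from the gene. Chst11 was reached in hCG replicate 2 only by a loop that PMSG replicate 1 also had, with an anchor 5.56 kb from the gene. For Sdc3 the PMSG anchors lay 2.54 kb from its start.

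Of the 5 genes for the linker that starts every chain, Xylt1 and B4galt7 were looped. Xylt1, which sets the first xylose on the core protein, had an hCG-only loop of 725 kb that joined its lower end on chromosome 7 (117375001 to 117400000) to the ends of Arl6ip1 and Rps15a (118100001 to 118125000). It had 29 and 33 contacts in the hCG libraries, against 7.52 and 9.34 expected from the surrounding pixels (the donut expectation of the loop caller). PMSG replicate 1 had a loop at the same end that ran the other way, over 670 kb, with 22 contacts against 4.68 expected. The end of Xylt1 was thus an anchor in 3 libraries, and its partner differed. B4galt7, which adds the next sugar, had a loop of 45 kb in hCG replicate 2 and PMSG replicate 1, with 19 and 26 contacts against 4.75 and 7.40 expected. The remaining linker genes Xylt2, B3galt6 and B3gat3 lay 52.5, 199 and 20.4 kb from the nearest anchor.

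Genes that extend and sulfate chondroitin split between the classes. Chsy1, a synthase that lengthens the chondroitin chain, had 2 loops in each hCG library and 0 in each PMSG library. Its hCG-only loop joined the gene start on chromosome 7 (66100001 to 66110000), shown above, to an end of Lrrk1 150 kb away, with 37 and 53 contacts in hCG against 9.68 and 13.1 expected. Both PMSG libraries had an anchor 4.49 kb from the start of Chsy1, outside the 2.5 kb limit. In PMSG replicate 1 it was the bin 66100001 to 66105000, whose loop ran past the Lrrk1 anchor by 47.5 kb (midpoint to midpoint) and had 31 contacts against 4.47 expected.

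Csgalnact1, whose enzyme adds the first sugar that commits a chain to chondroitin, showed the opposite class. Its PMSG-only loop of 375 kb on chromosome 8 joined the lower end of the gene (68350001 to 68375000, together with an end of Sh2d4a) to its upper end (68725001 to 68750000), so that the loop enclosed the gene. It had 69 and 50 contacts in the PMSG libraries against 30.4 and 20.5 expected, and the nearest anchors of the hCG libraries lay 94.4 and 104 kb from the gene ends. The polymerizing factors Chpf and Chpf2, partners of the synthases, had a gene end at a loop of 1 library each. Chsy3 and Csgalnact2 lay 85.3 and 35.9 kb from the nearest anchor.

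Of the 9 genes of chondroitin and dermatan sulfation 8 were looped. Chst11, a sulfotransferase of chondroitin, had an hCG-only loop on chromosome 10 that joined its start (82985001 to 82990000) to an anchor 75 kb upstream (82910001 to 82915000). In hCG replicate 1 it had 19 contacts (2.82 expected, 5 kb bin). In hCG replicate 2 it had 43 (16.4 expected, 10 kb bin), with an anchor that did not reach the gene within 2.5 kb. The nearest anchors of the PMSG libraries lay 5.56 and 24.1 kb from the ends of Chst11. A second loop of Chst11, of 50 kb, was called in both hCG libraries and in PMSG replicate 1, and reached the gene start in hCG replicate 2 alone. It had 36 and 48 contacts in hCG against 18.9 and 18.2 expected, and 78 in PMSG replicate 1 against 37.6 expected. Chst13, another chondroitin sulfotransferase, had a PMSG-only loop of 640 kb on chromosome 6 that joined its start and an end of Uroc1 (90320001 to 90330000) to an end of Txnrd3. PMSG replicate 1 had 48 contacts there (13.97 expected, 25 kb bin) and PMSG replicate 2 had 19 (2.61 expected, 10 kb bin). The nearest anchors of the hCG libraries lay 125 and 105 kb from the gene. Chst3, Chst15 and Ust were at common loops, the dermatan epimerase gene Dse at a loop of hCG replicate 1 alone, and Chst12 and Chst14 at loops of 2 and 3 libraries that reached the gene end in 1 of them. Chst7 lay 29.0 kb from the nearest anchor.

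Heparan sulfate genes held 6 of the 13 genes at common loops. Ext1, whose protein forms the heparan polymerase with that of Ext2, had the most distinct loops of the list, 5 in all, with 4 and 1 loops at its ends in the hCG libraries and 2 and 1 in the PMSG libraries. Its common loop of 350 kb left the upper end of the gene on chromosome 15 (53340001 to 53350000). Its hCG-only loop of 50 kb met the same end from inside the gene, with 36 and 40 contacts in hCG against 18.96 and 17.2 expected. These ratios of 1.90 and 2.33 were low, and only the anchor of hCG replicate 2 reached the gene end. Another loop met that end from inside the gene (53125001 to 53150000), over 200 kb, in hCG replicate 1 and PMSG replicate 1. It had 118 and 114 contacts there against 45.5 and 55.8 expected. Extl3, which starts heparan chains, had a common loop of 90 kb with 53 and 52 contacts in hCG against 10.3 and 14.6 expected, and with 63 and 34 contacts in PMSG against 20.2 and 10.7 expected. Extl2 was also at a common loop, Extl1 at a loop of hCG replicate 1 alone, and Ext2 lay 12.6 kb from the nearest anchor.

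Glce, the epimerase that turns glucuronic into iduronic acid in heparan sulfate, was looped in the hCG libraries alone. Its hCG-only loop of 80 kb on chromosome 9 joined the gene start (62120001 to 62130000) to an anchor beyond the other end of the gene (62040001 to 62050000). There were 34 and 37 contacts in hCG against 12.9 and 12.8 expected. PMSG replicate 1 used the anchor at 62040001 to 62045000 as well, but for a loop to 62240001 to 62245000, past the gene, with 25 contacts against 3.68 expected. The nearest anchors of the PMSG libraries lay 12.2 and 7.24 kb from the ends of Glce. Ndst1, which makes the first modification of heparan sulfate, was looped in all 4 libraries, with 2 loops in each. A loop on chromosome 18 was PMSG-only, joined its lower end to Gm4951 over 475 kb and had 38 and 27 contacts in PMSG against 8.68 and 4.53 expected, whereas a common loop of 85 kb joined the same end to Synpo, Rbm22 and Myoz3. The anchor at Gm4951 (60200001 to 60225000) was also used in hCG replicate 1. There a loop ran from 60200001 to 60210000 within it to 60580001 to 60590000, with 22 contacts against 1.63 expected. Hs6st1, a sulfotransferase, had 1 loop of 60 kb to Uggt1 in every library. Ndst2 and Hs2st1 had a loop in 1 library each, and Ndst4, Hs6st2 and Hs6st3 lay 96.7, 6.64 and 12.5 kb from the nearest anchor.

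**Figure D3:**
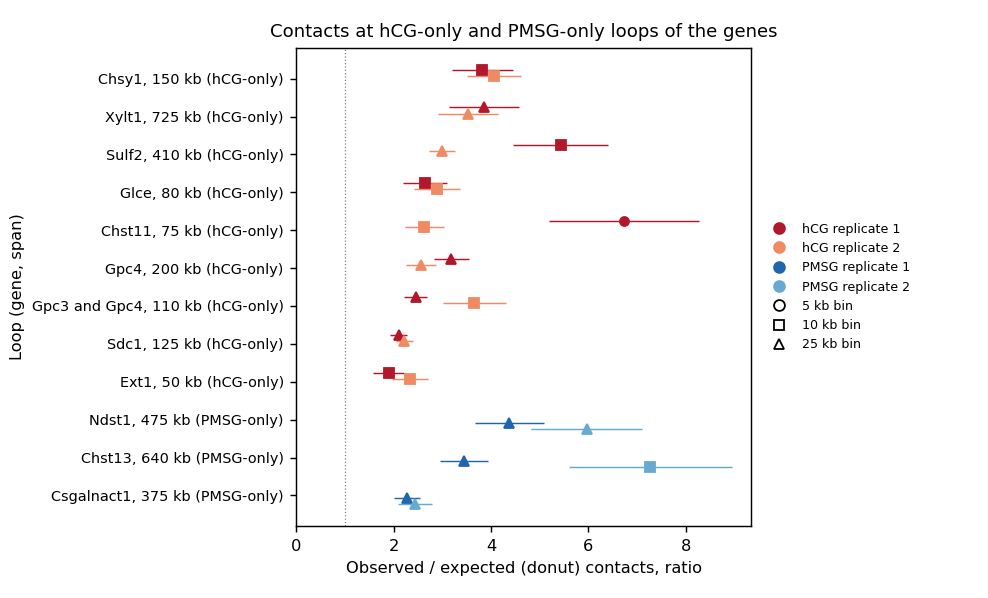
Observed over expected contacts (donut expectation, ratio) in each library at the hCG-only and PMSG-only loops of the list, with the span of each loop. Bars show the square root of the observed count divided by the expectation, and marker shapes give the bin size, since ratios of different bin sizes are not on 1 scale. The ratios of the hCG-only loops lie between 1.90 and 6.73.

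Both extracellular sulfatases, which trim sulfate from heparan chains at the cell surface, were looped in all 4 libraries. Sulf2 had 3 loops in each hCG library and 1 in each PMSG library. Its hCG-only loop joined the gene start on chromosome 2 (166150001 to 166160000), shown above, to an end of Prex1 410 kb away (166560001 to 166570000). There were 31 contacts in hCG replicate 1 (5.71 expected, 10 kb bin) and 121 in hCG replicate 2 (40.5 expected, 25 kb bin). PMSG replicate 1 had a loop to the same Prex1 anchor from inside Sulf2 (166085001 to 166090000), with 29 contacts against 4.42 expected, so the anchor in Sulf2 lay 67.5 kb apart between these libraries. Sulf1 had a common loop of 270 kb that joined its upper end and an end of Slco5a1 to Ncoa2 and Prdm14. That loop had 22 and 74 contacts in hCG against 2.60 and 17.9 expected, and 30 and 43 in PMSG against 4.11 and 13.6 expected, in bins of 10 and 25 kb in each group.

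The neighbouring glypican genes Gpc4 and Gpc3 on the X chromosome held the only loop of the list that joined 2 of its genes. Gpc4 (52051007 to 52164923) and Gpc3 (52272426 to 52613974) both read toward lower coordinates, so the start of Gpc4 faces the far end of Gpc3. An hCG-only loop joined these ends (52160001 to 52170000 with 52270001 to 52280000), with 107 contacts in hCG replicate 1 (43.6 expected, 25 kb bin) and 32 in hCG replicate 2 (8.75 expected, 10 kb bin). A second hCG-only loop, of 200 kb, ran from the same start of Gpc4 into the body of Gpc3 (52350001 to 52375000), with 77 and 70 contacts in hCG against 24.2 and 27.3 expected. Gpc4 had 3 and 2 loops at its ends in the hCG libraries and 0 in each PMSG library, whose nearest anchors lay 210 and 23.99 kb away. The anchor inside Gpc3 was also called before hCG. PMSG replicate 2 had a loop of 275 kb to it from inside Gpc4 (52075001 to 52100000), with 59 contacts against 19.7 expected, and hCG replicate 2 had that loop with 66 against 26.0. Within the window from 50 kb below Gpc4 to 50 kb above Gpc3 there were 3 and 4 loops in the hCG libraries and 1 and 2 in the PMSG libraries.

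**Figure D4:**
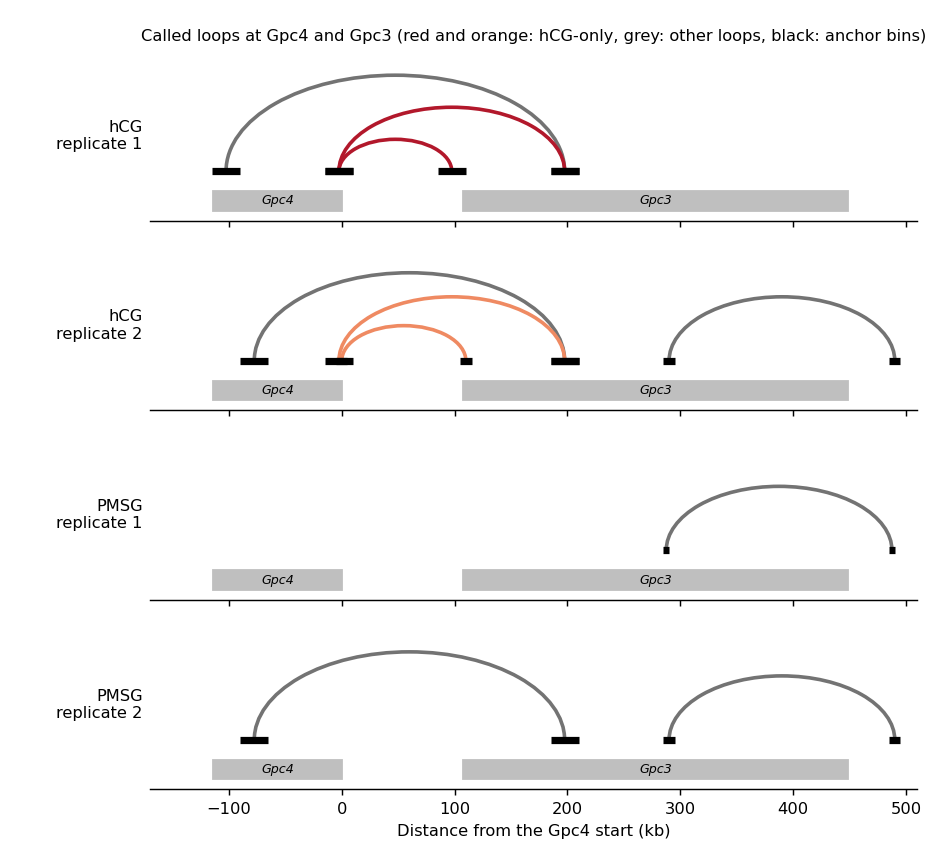
Called loops at Gpc4 and Gpc3 in each library, as arcs over the distance from the Gpc4 start (kb), with genes as grey boxes and anchor bins in black. The arcs that leave the Gpc4 start, 100 or 110 kb and 200 kb long, appear in the hCG panels and are absent from the PMSG panels.

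Of the other glypicans, Gpc1 had a common loop on chromosome 1 from its lower end (92830001 to 92835000) to an anchor 135 kb below (92695001 to 92700000). It had 21 and 32 contacts in hCG against 2.12 and 2.65 expected, and in PMSG 25 contacts in replicate 1 (4.36 expected, 5 kb bin) and 92 in replicate 2 (36.8 expected, 25 kb bin). In 5 kb bins the ratios were thus 9.90 and 12.1 in hCG and 5.73 in 1 PMSG library. Gpc2, Gpc5 and Gpc6 lay 23.7, 12.2 and 20.5 kb from the nearest anchor.

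All 4 syndecan genes were looped, and Sdc1 and Sdc3 in both hCG libraries. Sdc1 had a common loop of 240 kb on chromosome 12, from its start and an end of Pum2 to Ttc32 and Wdr35, with 91 and 113 contacts in 25 kb bins of hCG against 35.9 and 40.9 expected, and 28 and 30 contacts in 10 kb bins of PMSG against 8.18 and 5.81 expected. From the same start, shown above, an hCG-only loop of 125 kb reached an anchor without a gene end (8875001 to 8900000). It had 134 and 173 contacts in hCG against 63.8 and 78.0 expected, ratios of 2.10 and 2.22. The nearest PMSG loop was the common one, 117.5 kb away.

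Sdc3 had a common loop whose ratio was high in every library. The loop spanned 95 kb on chromosome 4 and was called in 5 kb bins in each library, with 23 and 38 contacts in hCG against 2.63 and 3.26 expected, and 43 and 16 contacts in PMSG against 6.19 and 1.98 expected. The ratios were 8.73 and 11.7 in hCG and 6.95 and 8.07 in PMSG. The gene start lay within 2.5 kb of the anchors of the hCG libraries and 2.54 kb from those of the PMSG libraries. This was the only loop of the list that could be tested for strength, in a fit of 1293 loops called once in each library in 1 bin size. Its log2 ratio of hCG over PMSG was 0.52 (SE 0.25) against a median of 0.15 over the 1293 loops, and it did not pass the test (edgeR quasi-likelihood, adjusted p = 0.711). No loop of the 1293 did (0%), with 87 at an unadjusted p below 0.05, and DESeq2 also called 0, with 5 at an unadjusted p below 0.05. Sdc2, at a loop of PMSG replicate 1, and Sdc4, at a loop of hCG replicate 1, rested on single lists.

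The ratios of common loops lay between 2.23 and 12.1, and those of hCG-only loops between 1.90 and 6.73. These ratios come from bins of 5, 10 and 25 kb and are not ranked across bin sizes. Loops of Extl2, Ndst3 and Chst15 are described next. The loop of Extl2 spanned 295 kb, with 27 contacts in hCG replicate 2 against 2.67 expected and 26 and 16 contacts in PMSG against 3.50 and 2.09 expected, all in 5 kb bins, and with 40 in hCG replicate 1 (8.25 expected, 10 kb bin). Ndst3, a sulfotransferase gene known for activity in the nervous system, had the longest, of 1070 kb. In 10 kb bins it had 16 contacts in hCG replicate 1 against 1.46 expected and 17 in each PMSG library against 1.64 and 1.68 expected, and in hCG replicate 2 it had 41 (8.84 expected, 25 kb bin). Those 10 kb anchors lay 6.17 kb from Ndst3, outside the 2.5 kb limit, and only the 25 kb bin of hCG replicate 2 reached it. Prss12 had an end at the same anchor. Chst15, a chondroitin sulfotransferase gene, had a loop of 320 kb to Oat with ratios of 7.88 and 3.29 in hCG and 5.61 and 4.77 in PMSG. A loop in 4 lists did not always touch the gene in all of them. The gene end was within 2.5 kb of the anchor in all 4 libraries for 7 of the 13 common loops. For 3 it was so in a single library: Chst3 (hCG replicate 1), Ndst3 (hCG replicate 2) and Chst15 (PMSG replicate 1).

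**Figure D5:**
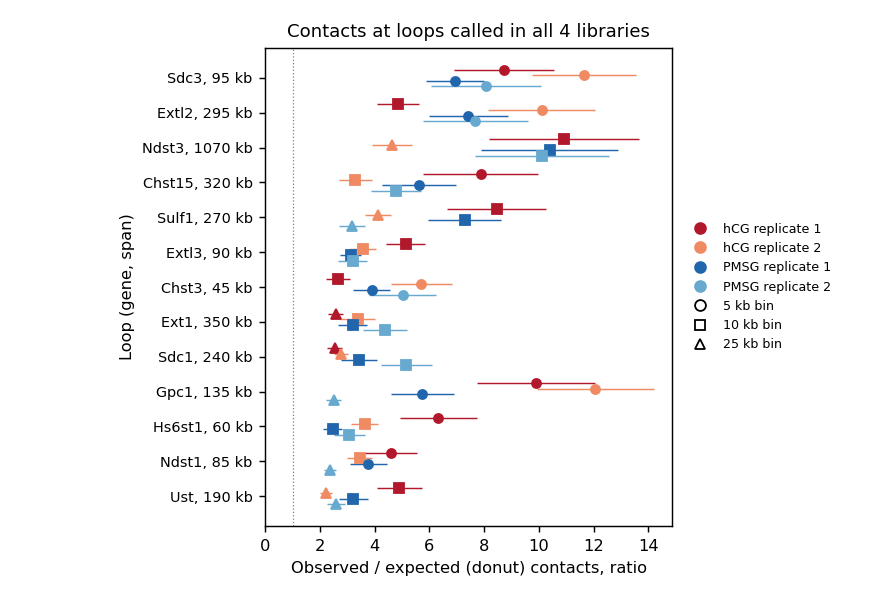
Observed over expected contacts (donut expectation, ratio) in each library at the 13 common loops of the list, ordered by the lowest of the 4 ratios, an order that mixes bin sizes. Bars show the square root of the observed count divided by the expectation, and marker shapes give the bin size. Sdc3 is in 5 kb bins throughout, with 8.73 and 11.7 in hCG and 6.95 and 8.07 in PMSG.

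The 13 genes without a loop lay between 6.64 kb (Hs6st2) and 199 kb (B3galt6) from the nearest anchor, with a median of 23.7 kb. Just inside the 2.5 kb rule were Hs6st1 at 1.60 kb and Extl1 at 2.45 kb, and just outside were Hs6st2 at 6.64 kb and Gpc5 at 12.2 kb. In 28 of the 33 looped genes an end lay inside an anchor. Among the 25 looped genes with a known strand, the start was at an anchor in 19 (76%) and the other end alone in 6, against a start at an anchor in 69.5% of 7209 looped genes. Of the 58 distinct loops 24 (41.4%) had a protein-coding gene end at both anchors, against 33.1% of all loops at gene ends.

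Of 31 other genes for precursor supply, further sulfation and breakdown of the chains, 16 were looped. Of these, 2 (12.5%) were at hCG-only loops, the sulfotransferase gene Hs3st1 and the lysosomal sulfatase gene Arsb, against 8.31% of all looped genes. Another 2 (12.5%) were at PMSG-only loops, the sulfotransferase gene Hs3st4 and the lysosomal iduronidase gene Idua, against 5.46%, and 10 (62.5%) were at common loops, against 41.8%. Their looped genes numbered 9 and 11 in the hCG libraries and 12 and 8 in the PMSG libraries, which overlap. The difference between this list and the main one was not tested.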

How the data were processed

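Each sample had 2 to 3 technical replicates of a Dovetail kit library, per the labels' protocols. BWA and Juicer were used with mm10, per the submitters' processing notes, and the lists were written by juicer_tools 1.22.01, per the file headers. The sources used here do not state the caller's settings. Each library has 1 deposited loop list in bins of 5, 10 and 25 kb, so a deeper library can pass more loops. The deposited observed contact count of a pixel is a whole number, not normalized, and precision is limited by it. The expected contact signal is deposited for 4 neighbourhoods, with a q-value for each, all below 0.1 in the authors' lists. A deposited score, the number of collapsed pixels, was not used.

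Members and lists were chosen with earlier results of these data known. Named genes were all members at hCG-only or PMSG-only loops, the 10 members with the highest weakest ratio at common loops (across bin sizes), any member called for strength, members next to the 2.5 kb limit, and partners of named loops. Gene ends came from RefSeq protein-coding genes of GRCm38.p6 (21631 genes on chromosomes 1 to 19 and X). Of 32 other pathway genes, 31 were in that table. Anchors within 20 kb were linked, also within a list, giving 12920 distinct loops, of which 3.65% were wider than 20 kb. Where a library had several calls in a distinct loop, the one with the highest ratio is given. Strength was tested with edgeR 4.0.16 (R 4.3.3) on observed counts with the log donut expectation as offset, Benjamini-Hochberg adjusted, on 435 identical pixels (no member among them) and on 1293 matched loops. DESeq2 1.42.0 was an alternative. Same-numbered libraries did not deviate together (correlation -0.016 and -0.015). Matching and fits were tested on simulated data. Python 3.11.15 was used for the other steps. Intervals cover counting error only, since contacts may hold PCR copies. Spread between libraries may be partly technical. Alternatives are described at the end.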

Additional observations from a re-analysis of the deposited data

How the results depend on the processing

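The count of list genes at hCG-only loops stayed above the share of all looped genes in all 10 other settings of matching, loop lists and gene ends, with shares from 16 to 36.8% of the list against 6.35 to 10.3% of all genes. The PMSG-only share did in 9 of 10. No single gene kept its class in all 10. Gpc4, Glce and Sulf2 were out of it in 1 of them, Chsy1 and Xylt1 in 2, Sdc1 in 3, Gpc3 and Chst11 in 4, and Ext1 in 6. Chst13 and Ndst1 were out of the PMSG-only class in 2 and Csgalnact1 in 3. For Ext1, Xylt1, Csgalnact1 and Ndst1, 1 of these was the setting with gene starts only, where they could not be counted. With 5 and 10 kb bins only, 25 genes were looped. Of these 4 (16%) were at hCG-only (background 6.35%), 1 (4%) at PMSG-only (background 4.14%) and 6 (24%) at common loops (background 38.5%). The PMSG-only gene was Sdc1, which was at an hCG-only and a common loop in the main setting. Its common loop was in 25 kb bins in both hCG libraries and in 10 kb bins in both PMSG libraries. With gene starts only, 19 genes were looped, 1 at PMSG-only (background 4.61%) and 4 at common loops (35.6%). Ext1, Xylt1, Csgalnact1, Ndst1, Extl3, Sulf1, Gpc1 and Sdc2 have no strand here and could not be counted in that setting. Of these, Ext1, Ndst1, Extl3, Sulf1 and Gpc1 were at common loops in the main setting. With overlapping anchors 7 were at common loops, and the backgrounds were 9.38%, 7.27% and 18.9% for hCG-only, PMSG-only and common. With the gene end required in 2 libraries 19 genes were looped. Of these 36.8%, 15.8% and 52.6% were at hCG-only, PMSG-only and common loops, against backgrounds of 10.3%, 6.94% and 55.4%. The same backgrounds were 7.52%, 4.87% and 52.7% with matching within 50 kb and 11.1%, 7.31% and 55.9% over genes with a loop in 2 libraries. For PMSG-only and common loops they were 6.16% and 32.6% with matching within 10 kb, 6.11% and 25.9% at FDR 0.01, and 5.97% and 46.4% with gene ends within 10 kb. For common loops it was 38.4% with gene ends inside the anchor. The list's own share at common loops, 39.4% against 41.8%, changed sides with the setting. It was above the background at FDR 0.01 (10 of 30 genes, 33.3%), with gene ends within 10 kb (19 of 34, 55.9%) and with overlapping anchors (21.2%), and below it in the other 7 of the 10. The causes were not tested.

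Without each library in turn, 27 to 31 genes were looped, 9 to 13 at hCG-only, 3 to 8 at PMSG-only and 12 to 16 at common loops, with backgrounds of 11.4 to 25.7%, 10.2 to 25.1% and 45.7 to 50.5%. Chst11 left the hCG-only class without hCG replicate 1. The PMSG-only count was 8 without PMSG replicate 2 (25.8% against 25.1%) and 5 without PMSG replicate 1 (16.7% against 15.6%), where that class rests on 1 list. It was 11.1% against 10.2% without hCG replicate 1 and 12.9% against 11.3% without hCG replicate 2. The hCG-only count rests on 1 list without hCG replicate 1 (12, 44.4% against 25.7%) and without hCG replicate 2 (13, 41.9% against 24.7%). The difference in list loops per 1000 kept its sign, between 0.969 and 1.62 without each library and between 1.04 and 1.38 in the other settings, against 1.29. Calls of strength stayed at 0 with the replicate block, with DESeq2 and with a mean count of at least 20. With the bottom left expectation the matched loops gave 2 higher and 1 lower, with the horizontal and vertical ones 2 higher and 1 lower, and 1 higher among identical pixels. Without each library the matched loops gave 0 to 9 higher (9 without PMSG replicate 2) and 0 to 1 lower, and the identical pixels 0 to 2 higher and 0 lower. The Sdc3 loop was at 0.42 with the replicate block (edgeR, adjusted p = 0.993) and between 0.27 and 0.69 in all settings. Absence from a list means only that no pixel passed the caller, and at 14 to 173 contacts per named pixel a weak loop can be missed.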
